A study of Mus musculus with 10 samples.

Results

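Interferon response hepatocytes are described here as the cells holding at least 4 UMIs (unique molecular identifiers, each counting 1 captured RNA molecule) summed over the 10 genes Rsad2, Ifit1, Ifit2, Ifit3, Ifit3b, Cmpk2, Cxcl10, Mx1, Usp18 and Oasl1. By this rule they were 114 of 18378 cells (0.620%), and they were compared with the other 18264 cells of the same libraries. The values of these 10 genes chose the cells, so they are given as a description only and were removed before any total or test.

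Interferons are secreted proteins that signal the presence of viruses and other microbes. Type I interferons bind the receptor made of Ifnar1 and Ifnar2, whose kinases activate STAT transcription factors, and these join Irf9 in a complex that binds GAAA-repeat elements in the promoters of interferon-stimulated genes. Type II interferon acts through another receptor and induces GTPases and chemokines more strongly. In the liver, hepatocytes respond to both kinds, and they also secrete most plasma proteins and carry out urea, glucose, lipid and drug metabolism, with tasks divided along the lobule between portal and central veins.

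The study profiled single hepatocytes of C57BL/6 male mice aged 3 months and fed chow without restriction, at 4 zeitgeber times (ZT, hours in the light-dark cycle). The animals were anaesthetised with ketamine and xylazine, the liver was perfused with collagenase, hepatocytes were purified on Percoll, and 10x Chromium 3' reagents (version 2) were used for the libraries. Libraries are named by letters, A to C at ZT0 and ZT12 and A to B at ZT6 and ZT18 (10 in all), with no infection or interferon treatment named in the labels. The number of animals behind a library is not in the labels, so the library is the replicate and the spread between libraries may be partly technical.

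The libraries held 1454623 to 7144803 UMIs, and cells held 1048 to 10001. The median interferon response cell had 2385 UMIs against 1963.5 in the other cells, and mitochondrially encoded genes took between 8.70% and 34.4% of a cell's UMIs. Of the interferon response cells, 8 of 114 (7.02%) had a UMI of a marker of another cell type, against 5.81% of the other cells. This count left out the cholangiocyte and erythroid markers described below, and Cd74, Ctss and Ccl5.

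The cells carried the hepatocyte identity that the label gives them. Every one of the 114 had UMIs of at least 1 of 8 hepatocyte markers (Alb, Apoa1, Ttr, Apob, Cps1, Serpina1a, Trf and Fgb), as had 100% of the other cells. Single markers were found in 105 (Cps1) to 114 of the 114 cells. The 8 summed to 59041 CPM (UMIs scaled to a total of 1000000) against 66977 CPM in the other cells. The sum was higher in 1 of the 7 libraries tested below. None of the 8 was called by edgeR, but 5 had an unadjusted edgeR p under 0.05. A log2 fold change above 0 was found for 1 of the 8, with a median of -0.21. Against cells matched on depth and lobule position the median was -0.06. Markers of other cells were scarce in both groups. Of 14 Kupffer cell and macrophage markers 12 were at 0 in the 114 cells, leaving 2 UMIs, and 5 of the 14, Clec4f, C1qa and Csf1r among them, were at 0 in every cell of the study. At least 1 UMI of this list was found in 1.75% of interferon response cells and 2.12% of the other cells. All 11 lymphocyte markers were at 0 in the 114 cells, but 8 of them were at 0 in every cell, so their absence in so few cells says little. The same holds for the 8 neutrophil and dendritic cell markers, found in 0.290% of the other cells. The 10 endothelial markers gave 5 UMIs, with 7 markers at 0, the 8 stellate cell markers gave 2 UMIs and the 6 cholangiocyte markers gave 3. Summed levels by library ran from 0 to 67.2 CPM for endothelial markers in interferon response cells and from 3.47 to 18.7 CPM in the other cells. Erythroid markers gave 30 UMIs, at 91.1 CPM against 108 CPM in the other cells. Of these UMIs, 28 were of Alas2 and 2 of the haemoglobin gene Hbb-bs.

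The 10 chosen genes were uneven among cells. Ifit1, an antiviral protein that binds foreign RNA, was found in 103 of the 114 cells (90.4%) and in 2.70% of the other cells. Rsad2 (viperin), an enzyme that makes a chain-terminating nucleotide, was found in 94 (82.5%) against 1.45%. Ifit3 was found in 79, Cmpk2, the mitochondrial kinase encoded beside Rsad2, in 48, Usp18, which removes Isg15 from proteins and damps the receptor, in 45, and Oasl1 in 43. Ifit3b was found in 36, the T cell chemokine Cxcl10 in 27, Ifit2 in 12 and Mx1 in 11. These cells held 2152 of the 4228 UMIs of the 10 genes (50.9%), while 10.5% of all cells held at least 1.

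The median interferon response cell had 10.5 UMIs of the 10 genes and the highest had 176. At least 10 UMIs were present in 59 cells and at least 50 in 8 cells, and the 10 genes never took more than 2.66% of a cell's UMIs. At least 3 of the 10 genes were detected in 96 cells and at least 5 in 50, and 18 cells passed on 1 or 2 genes. In 17 cells at least 75% of these UMIs came from a single gene, Rsad2 in 6, Cxcl10 in 5, Ifit1 in 4 and Ifit3 in 2. The files hold no cells assigned to a type that lacks these genes, so a background from free RNA was not measured apart from the shares in other cells given above.

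The threshold cut a graded range. Just outside it were 42 cells with 3 UMIs, and just inside were 15 cells with 4 UMIs. The 17 guanylate-binding and immunity-related GTPase genes, which were not used to choose cells, summed to 452 CPM in cells with no UMI of the 10 genes, 718 CPM at 2 UMIs, 1369.7 CPM (95% exact Poisson interval 1179.9 to 1581, counting error only) at 3 UMIs and 1418 CPM (1066 to 1851) at 4 UMIs. They reached 2255 CPM at 10 to 19 UMIs and 2712 CPM at 20 or more. Cells at 3 UMIs thus had intervals overlapping those at 4, on this list. A list of further interferon-stimulated effectors went from 2581 CPM at 0 UMIs to 3601 at 3, 3835 at 4 and 6022 at 20 or more. For major histocompatibility complex (MHC) class I and peptide loading genes the same steps gave 7013, 7563, 6987 and 8069 CPM.

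**Figure D1:**
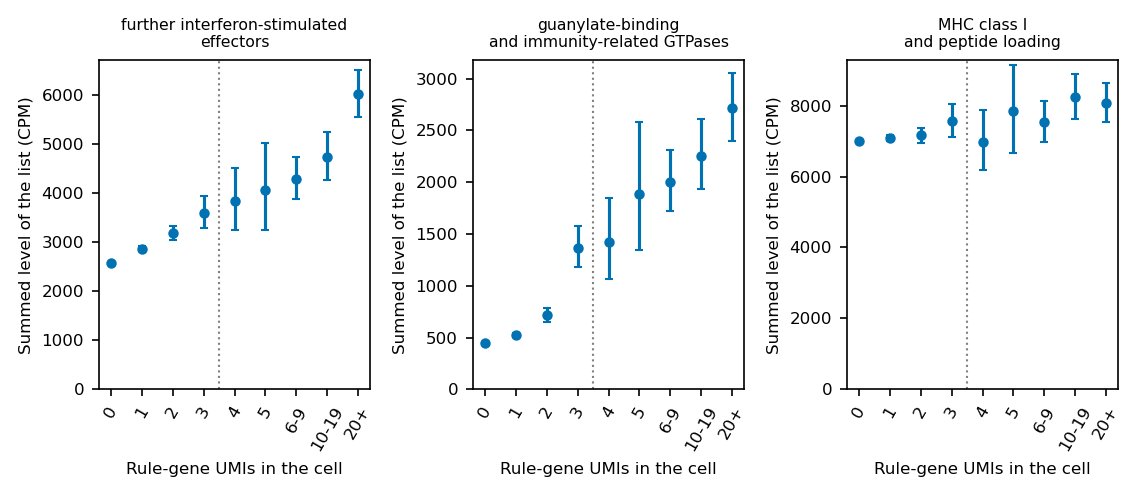
Summed level (CPM, linear axis) of 3 gene lists in cells grouped by their number of UMIs of the 10 chosen genes. Points are pooled over libraries, bars are 95% Poisson intervals, and the dotted line is the threshold between 3 and 4 UMIs. The GTPase list goes from 452 CPM at 0 UMIs to 2712 CPM at 20 or more, and MHC class I genes from 7013 to 8069 CPM.

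Interferon response cells were present in every library, and their share had its highest mean at ZT0 and its lowest at ZT18. The share was 0.721%, 0.734% and 1.23% in the ZT0 libraries A, B and C, 0.785% and 0.556% at ZT6, 0.563%, 0.446% and 0.615% at ZT12, and 0.238% and 0.168% at ZT18. Both ZT18 libraries lay below all 8 others, whereas ZT6 and ZT12 overlapped each other, and ZT6A lay above ZT0A and ZT0B. Means were 0.894% ± 0.288 (SD, n = 3), 0.671% ± 0.162 (n = 2), 0.541% ± 0.0867 (n = 3) and 0.203% ± 0.0499 (n = 2) in the order ZT0, ZT6, ZT12 and ZT18. The shares rested on 22 cells at most in a library and on 3 in ZT18B, where the 95% exact binomial interval ran from 0.0346% to 0.490%.

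The differences among times passed an exact permutation test of the 10 libraries (p = 0.0068, with no direction in its statistic, the sum of squares between times of log2 share). The test rested on ZT18: without its 2 libraries, an alternative added after seeing the data, the exact permutation p was 0.154. With every cell thinned to 1000 UMIs, which no cell was too shallow for, the expected shares were 0.476%, 0.511%, 0.352% and 0.109% in the same order (exact permutation p = 0.0278). At that equal depth ZT6, not ZT0, had the highest mean, so the order of these times is not settled. ZT18 cells had also differed otherwise. The median mitochondrial share of other cells was 21.6% and 19.2% at ZT18 and 24.7% in ZT12A, against 12% to 17.8% in the remaining 7 libraries, and erythroid markers stood at 361 CPM in ZT18B against 72.8 to 108 CPM in the other libraries. Their part in the share was not tested.

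**Figure D2:**
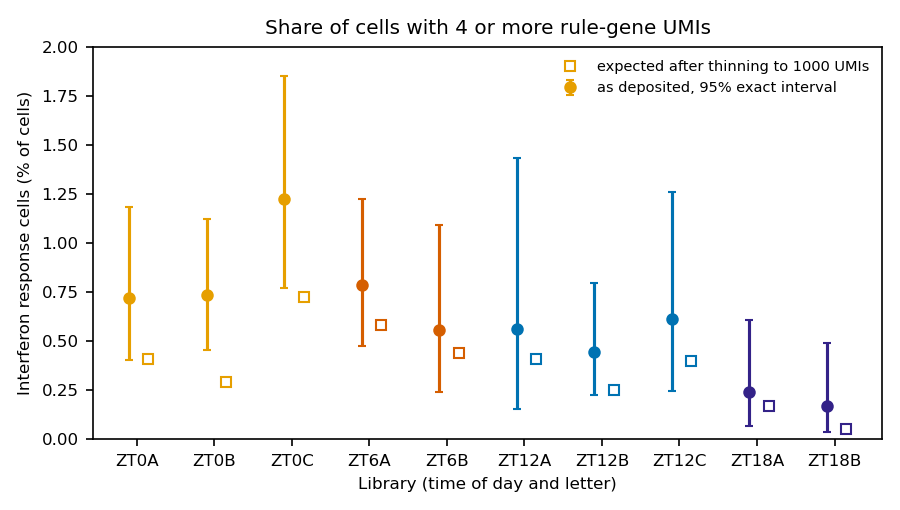
Percentage of cells with 4 or more UMIs of the 10 chosen genes in each of 10 libraries, coloured by time. Filled points carry 95% exact binomial intervals and open squares are the share expected after thinning each cell to 1000 UMIs. ZT0C is highest at 1.23% and ZT18B lowest at 0.168%.

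Expression across genes was compared in the 7 libraries with at least 5 interferon response cells, which held 103 of them. The remaining 11, in ZT12A, ZT18A and ZT18B, were too few per library. UMIs were summed per library over interferon response cells and over all other cells and tested with edgeR's quasi-likelihood test with the library as a block, on 6253 genes. A gene is called here when its edgeR p-value, adjusted by the Benjamini-Hochberg method over those 6253 genes, is under 0.05. In the summed interferon response cells 1 UMI was worth 10.4 CPM in ZT0C and up to 67.2 CPM in ZT12C, so genes with few UMIs carry a large counting error. Values with ± are means and SD over the 7 libraries, and log2 fold changes carry their standard error (SE). That SE comes from the edgeR fit, where nearly all genes share an estimate of spread. It does not measure a gene's own spread between libraries, and the edgeR p-values rest on the same shared estimate.

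Interferon response cells had 71 genes higher (1.14% of genes tested) and 9 lower (0.144%), 80 in all (1.28%). That balance depended on the scaling: with TMM normalization over all tested genes, which moved the median of all genes to -0.27, 45 were higher and 102 lower, so 30.6% of calls were higher in place of 88.75%. The median log2 fold change over all 6253 genes was 0.01. Of the 71 higher genes, 36 belonged to the lists of interferon genes used here and 35 did not. The lists are not complete. Cxcl9, a chemokine induced by type II interferon, and Trim30d, similar to the listed Trim30a, are among the 35. A place outside the lists therefore does not set a gene apart from interferon. The filter on low counts includes the interferon response cells, so a gene low elsewhere enters the test only by being high in them. Of the tested genes 338 were under 10 CPM in the other cells, and these held 20 of the 71. Those of the 20 named below are Socs1, Dhx58, Herc6, Xaf1, Trim30a, Trim30d, Trim12c, Parp11, Oasl2, Gbp2, Ccl2, Ddx60 and Samhd1. With the filter set on other cells alone, an alternative added after seeing the data, 51 genes were higher and 8 lower. By library, 17 of the 71 were higher in all 7 libraries, 26 in 6, 16 in 5 and 12 in 4 or fewer. There were 17 genes (0.272% of those tested) whose 7 values in interferon response cells all exceeded all 7 values in other cells, and 12 of these were among the 71. The estimate of spread was common to all but 10 genes, so the number of libraries that agree is given for the called genes below. Where the groups do not overlap, all 7 agree.

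**Figure D3:**
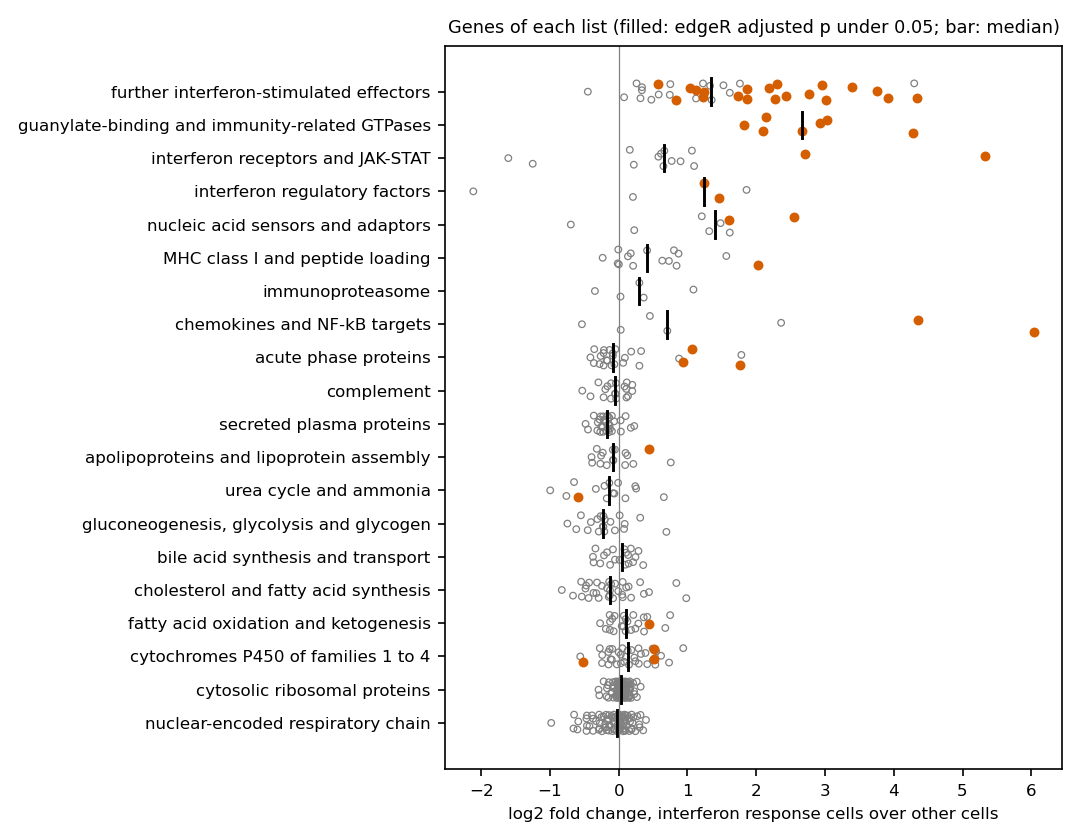
Log2 fold change of each tested gene between interferon response cells and other cells, in 20 gene lists (rows). Filled points passed an edgeR adjusted p of 0.05, open points did not, and the bar is the list median. Genes low in other cells appear only if high in interferon response cells. All 7 GTPase genes are filled, and 6 of 6 are called with the filter on other cells alone. Secreted plasma proteins hold no filled point and have a median of -0.16.

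Among receptor and signalling genes, several of the best known members had few UMIs. Socs1, a feedback inhibitor of the receptor kinases, was called (log2 fold change 5.33 ± 1.44, edgeR adjusted p = 0.023), but on 5 UMIs in 3 of 7 libraries, and not without ZT0C. Socs1 passed the filter only through interferon response cells. Stat2, which pairs with Irf9 after type I interferon, was not called. It measured 35.6 ± 32.3 against 19.5 ± 4.49 CPM and Irf9, also not called, 36.4 ± 34.1 against 18.7 ± 5.23 CPM (log2 fold changes 0.61 ± 0.53 and 0.58 ± 0.53). The receptor chains Ifnar1 and Ifnar2 had 7 and 5 UMIs and log2 fold changes of 0.65 ± 0.68 and -1.25 ± 0.67, neither called. At these counts a change of the size of the standard errors, 0.53 to 0.68 on the log2 scale, was not detectable.

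Interferon regulatory factors gave 2 called genes of 5 tested. Irf7, the factor that amplifies type I interferon production, stood at 72.7 to 293 CPM in interferon response cells (median 134) and 26.9 to 68.0 CPM in the others (median 53.4). No library overlapped with the other group, and ZT12B was highest. Its log2 fold change was 1.46 ± 0.30 (edgeR adjusted p = 0.00026, higher in 7 of 7). Irf2 had a log2 fold change of 1.24 ± 0.34 (edgeR adjusted p = 0.028, 6 of 7), and this call was lost without ZT0B, ZT0C, ZT6B or ZT12B. Irf1, the factor induced by type II interferon, measured 46.8 ± 48.2 against 9.33 ± 2.91 CPM and did not pass (log2 fold change 1.86 ± 0.55, edgeR adjusted p = 0.057).

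Of 8 tested sensors and adaptors of foreign nucleic acid, 2 were called. With the filter on other cells alone, 5 were tested and 1 was called, Tbk1. Dhx58 (LGP2) is an RNA helicase of the RIG-I family, and Tbk1 is the kinase that phosphorylates interferon regulatory factors. Their log2 fold changes were 2.55 ± 0.73 and 1.61 ± 0.46 (edgeR adjusted p = 0.041 and 0.036), on 9 and 17 UMIs. Dhx58 was higher in 4 of 7 libraries and Tbk1 in 5 of 7. Dhx58 lost the call without ZT0B, ZT0C, ZT12B or ZT12C, and Tbk1 without ZT0A, ZT0C, ZT6A or ZT12C. Ifih1 (MDA5), a sensor of long double-stranded RNA, was higher in 7 of 7 libraries at 63.9 ± 16.4 against 25.9 ± 5.57 CPM but did not pass (edgeR adjusted p = 0.11). None of the 9 interferon ligand genes listed, Ifnb1 and Ifng among them, is in the gene table used here.

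The effectors were the largest set of called genes. Of 57 further interferon-stimulated effectors in the table, 38 were tested and 20 rose, 0 fell. With the filter on other cells alone, 29 were tested, 12 rose and 0 fell, with a median log2 fold change of 1.05 against -0.04 over all genes. Isg15, a ubiquitin-like protein that is attached to other proteins, stood at 47.2 to 672 CPM in interferon response cells (median 180.0) and 10.3 to 17.1 CPM in the others (median 12.1). The groups did not overlap, and ZT12C and ZT0A were highest and ZT6A lowest. It was found in 38 cells (33.3% against 2.22% of the others), with a log2 fold change of 3.91 ± 0.31 (edgeR adjusted p = 1.1e-33, 7 of 7). Its conjugating enzymes also rose: Ube2l6, the E2 enzyme, by 1.23 ± 0.35 (edgeR adjusted p = 0.036, 7 of 7 libraries) and the ligase Herc6 by 2.57 ± 0.56 (edgeR adjusted p = 0.00074, 5 of 7, lost without the cell with the most chosen UMIs in each library). Ube2l6 lost the call without ZT0B, ZT0C, ZT6A or ZT12B. Herc6 passed the filter only through interferon response cells.

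Further effectors had varied roles. Eif2ak2 (PKR), the kinase that halts translation on double-stranded RNA, rose by 2.27 ± 0.42 (edgeR adjusted p = 2.3e-05, 5 of 7, lost without ZT0C). The ADP-ribosyltransferase Parp12 stood at 41.5 to 259.6 CPM against 22.7 to 37.7 CPM, with no overlap (log2 fold change 1.74 ± 0.35, edgeR adjusted p = 0.00012, lost without ZT6A). The ubiquitin ligase Rnf213 had a log2 fold change of 2.43 ± 0.25, Xaf1, a regulator of apoptosis, 3.01 ± 0.57, and Rtp4 2.31 ± 0.38, each in 6 of 7 libraries. Trim30a, of the tripartite motif family, had 3.76 ± 0.62 (6 of 7). Its neighbour Trim30d, which is similar but in none of the lists, had 3.23 ± 0.53 (6 of 7). Reads of such copies, and of Apol9a and Apol9b, may have been split by the counting, so their separate values are uncertain. Oasl2 was called on 8 UMIs (log2 fold change 4.34, edgeR adjusted p = 0.0020, 5 of 7). Xaf1, Trim30a, Trim30d and Oasl2 passed the filter only through interferon response cells. The abundant membrane protein Ifitm3, which blocks viral entry, was not called, at 1095 ± 323 against 808 ± 223 CPM (edgeR adjusted p = 0.19).

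Guanylate-binding and immunity-related GTPases rose. All 7 that were tested were called, but 1 of them, Gbp2, passed the filter only through interferon response cells. With the filter on other cells alone all 6 tested rose, with a median log2 fold change of 2.41. These GTPases attack the vacuoles of intracellular microbes, and 17 of the 18 listed were in the table, 10 of them below the filter. Iigp1 was the most widespread, in 97 of 114 cells (85.1%) and in 48.8% of the other cells. It stood at 899.9 to 1814 CPM in interferon response cells (median 1302) and 210.0 to 553 CPM in the others (median 302). No library overlapped, and the log2 fold change was 1.82 ± 0.12 (edgeR adjusted p = 7.1e-49, 7 of 7). Igtp stood at 109 to 540.0 CPM (median 218, highest in ZT6B) against 12.7 to 46.3 CPM (median 28.1), again with no overlap (2.92 ± 0.27, edgeR adjusted p = 1.0e-24). Irgm2 stood at 114 to 283 CPM against at most 85.1 CPM (2.10 ± 0.27, edgeR adjusted p = 1.6e-12, 7 of 7). Gbp7 had 3.03 ± 0.33 (7 of 7, with ZT0A lowest at 25.6 CPM), Ifi47 2.67 ± 0.30 and Irgm1 2.15 ± 0.33 (6 of 7 each). Gbp2 had 4.28 ± 1.08 but rested on 7 UMIs in 4 cells, was higher in 3 of 7 libraries, and did not pass against cells matched on depth and lobule position.

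**Figure D4:**
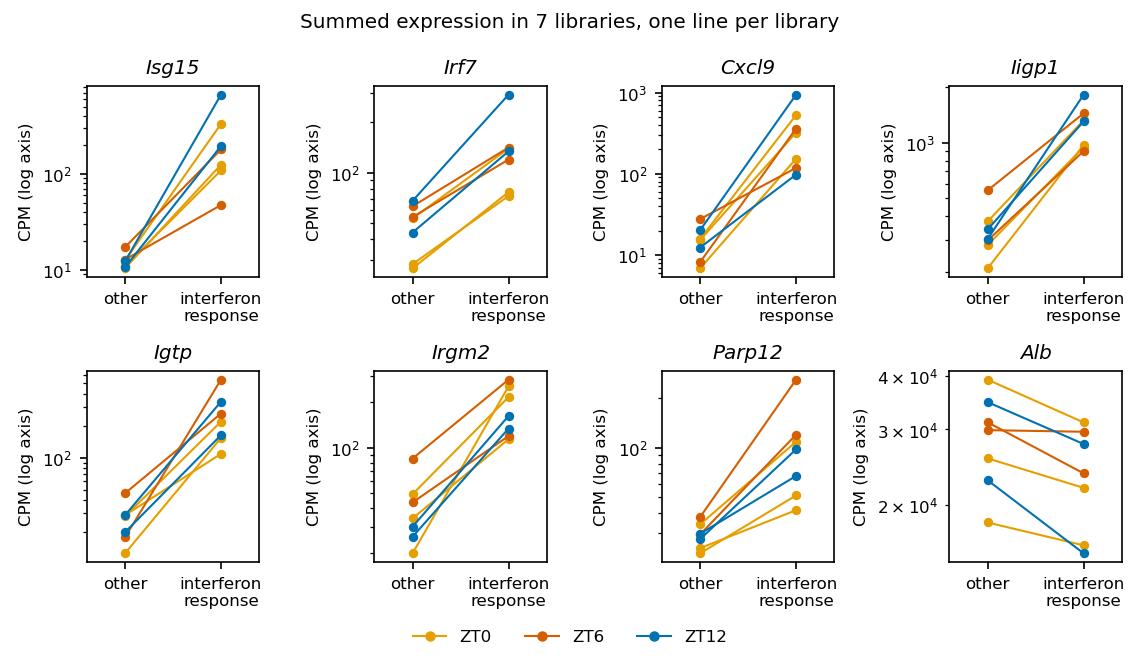
CPM (log axes, scaled separately per gene) of 8 genes in other cells and interferon response cells of the 7 tested libraries, with a line per library coloured by time. Isg15, Irf7, Cxcl9, Iigp1, Igtp, Irgm2 and Parp12 rise in all 7 libraries without overlap between groups. Alb is lower in all 7, with an edgeR adjusted p of 0.058 and a DESeq2 adjusted p of 0.0013.

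The promoters of these genes were searched for the interferon-stimulated response core, GAAA followed by any 2 bases and another GAAA, or TTTC, any 2 bases and TTTC for the other strand, in the 250 bases before each RefSeq start (GRCm38.p6), counting overlapping matches. A match was present for 936 of the 27025 genes of the promoter table (3.46%) and 143 of the 4882 tested genes with an entry (2.93%). It was present for 15 of the 58 called higher genes with an entry (25.9%) and for 0 of 8 called lower genes. By list, it was present for 11 of 29 in the interferon lists (37.9%) and 4 of 29 outside them (13.8%). Of the 15, Ddx60, Trim12c, Trim30a, Trim30d, Gbp2, Parp11 and Socs1 passed the filter only through interferon response cells. These include the 4 outside the lists. Trim12c and Parp11 were higher in 5 and 4 of 7 libraries. Both lost their calls without ZT6A, and Parp11 also without ZT0B. Of the 10 genes that chose the cells, 8 had an entry and 5 a match. A match describes these letters and is not a binding site shown by the data. The 5 called interferon genes with a match and the lowest p-values are shown because they carry the shared element, with matches in capitals, 5′ to 3′ on the gene's own strand.
Isg15, chr4:156200845-156200926, minus strand, 3 overlapping matches: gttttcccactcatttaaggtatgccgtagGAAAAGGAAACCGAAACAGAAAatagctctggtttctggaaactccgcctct
Igtp, chr11:58199492-58199555, plus strand, 1 match: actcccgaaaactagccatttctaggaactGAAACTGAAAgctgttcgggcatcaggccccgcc
Irgm2, chr11:58214883-58214952, plus strand, 1 match: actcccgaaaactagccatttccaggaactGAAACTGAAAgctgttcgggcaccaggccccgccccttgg
Irgm1, chr11:48871421-48871480, minus strand, 2 overlapping matches: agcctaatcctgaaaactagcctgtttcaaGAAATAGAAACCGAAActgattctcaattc
Gbp7, chr3:142530253-142530322, plus strand, 1 match: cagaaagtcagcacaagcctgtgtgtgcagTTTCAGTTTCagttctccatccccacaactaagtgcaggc

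The last match began 66 bases before the start in Isg15, 34 in Igtp, 64 in Irgm2, 24 in Irgm1 and 53 in Gbp7. Igtp and Irgm2, which neighbour each other on chromosome 11, share the match and most of the bases around it, and they rose by 2.92 ± 0.27 and 2.10 ± 0.27. Gbp7 carries the element in the opposite orientation.

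Few antigen presentation genes passed the test. Of 15 tested MHC class I and peptide loading genes 1 rose: Tap1, a subunit of the peptide transporter, at 57.6 ± 37.2 against 15.9 ± 6.56 CPM (log2 fold change 2.02 ± 0.42, edgeR adjusted p = 0.00035, 6 of 7, lost without ZT0C). With the filter on other cells alone the list median was 0.21. B2m, the invariant light chain, measured 2710.4 ± 434 against 2402 ± 485 CPM (0.13 ± 0.10, edgeR adjusted p = 0.89), and H2-Q10, a secreted class I chain of the liver, 1935 ± 280.1 against 1901 ± 271 CPM. None of the 5 immunoproteasome genes was called by edgeR, and 0 of them had an unadjusted p under 0.05. Psmb8, an inducible catalytic subunit, measured 56.3 ± 33.4 against 34.3 ± 9.29 CPM.

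Cxcl9, the chemokine induced by type II interferon that attracts T cells through the same receptor as Cxcl10, had the lowest edgeR p-value of all genes tested. That p-value rests on the shared estimate of spread, while Cxcl9 itself measured 360 ± 299 against 15.2 ± 7.17 CPM. It stood at 97.6 to 941 CPM in interferon response cells (median 322, highest in ZT12C) and 6.85 to 27.7 CPM in the others (median 15.3). The groups did not overlap, with a log2 fold change of 4.36 ± 0.25 (edgeR adjusted p = 2.2e-63, 7 of 7). Its 100 UMIs nevertheless came from 15 of the 114 cells, with 25 in a single cell. Cxcl10 was found in 27 cells, both chemokines in 10 and either in 32, and the remaining cells showed neither at this depth. In the 18 cells that passed on 1 or 2 of the chosen genes, 4 held Cxcl9, at 1132 CPM. Of 7 tested chemokine and NF-kB target genes the other call was Ccl2, on 4 UMIs in 2 cells, and higher in 2 of 7 libraries. It passed the filter only through interferon response cells. Nfkbia, the feedback inhibitor of NF-kB, and Icam1 were not called (log2 fold changes 0.71 ± 0.40 and 2.36 ± 0.90). None of 9 tested cell death genes was called by edgeR, and none had an unadjusted p under 0.05.

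The 35 higher genes outside the interferon lists included Ddx60, a helicase, at 70.1 ± 64.8 against 3.44 ± 1.60 CPM (log2 fold change 3.72 ± 0.60, 6 of 7 libraries), and Samhd1, which degrades deoxynucleotides, at 81.5 ± 73.8 against 7.36 ± 2.29 CPM (3.15 ± 0.49, 7 of 7). Both were too low in other cells to be tested with the filter on those alone. G3bp2, a protein of stress granules, measured 232 ± 66.6 against 89.7 ± 13.2 CPM with no overlap between groups (log2 fold change 1.43 ± 0.22, edgeR adjusted p = 2.1e-08, 7 of 7). It kept its call in every alternative. AW112010, a transcript of immune-activated cells, measured 458 ± 205 against 205 ± 35.0 CPM, also with no overlap (1.01 ± 0.17, edgeR adjusted p = 3.8e-07, 7 of 7). Tor1aip1, a protein of the nuclear envelope, rose by 1.36 ± 0.27 (7 of 7), and Hpgd, which inactivates prostaglandins, by 1.14 ± 0.22 (6 of 7). Trp53inp1, a p53 target linked to autophagy, rose by 1.43 ± 0.25 (6 of 7), and Pnp, purine nucleoside phosphorylase, by 1.17 ± 0.22 (5 of 7, not called by DESeq2). These genes were singled out after their values were seen.

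Few acute phase genes passed the test. Of 26 tested acute phase genes 3 rose and 0 fell, with a median of -0.09. The 3 were Saa1, Saa2 and Steap4, serum amyloid A proteins and a metalloreductase. Saa1 stood at 94.4 to 1814 CPM in interferon response cells and 83.3 to 677 CPM in the others, so the groups overlapped, and the log2 fold change was 1.07 ± 0.16 (edgeR adjusted p = 2.0e-08, 6 of 7). Saa1 was not called among cells with at least 3 of the chosen genes. Saa2 was higher in 4 of 7 libraries only, at 2016 CPM in ZT12C and 0 in ZT6B and ZT12B (1.76 ± 0.21, edgeR adjusted p = 2.3e-14). DESeq2 did not call it (log2 fold change 1.23, adjusted p = 0.99965), and 27 of its 95 UMIs came from a single cell. Saa1 and Saa2 are near-identical, so their counts may be shared. Steap4 rose by 0.94 ± 0.27 (edgeR adjusted p = 0.045, 6 of 7), a call lost without ZT0A, ZT0B, ZT0C or ZT6A. Itih4 measured 539 ± 166 against 761 ± 163 CPM and was not called (edgeR adjusted p = 0.12).

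Secreted plasma proteins showed small differences that passed or missed the threshold by tool. None of 31 tested members was called by edgeR, 9 had an unadjusted p under 0.05, and 5 of 31 had a log2 fold change above 0, with a median of -0.16 against 0.01 over all genes. Albumin (Alb) stood at 15453 to 31159.8 CPM in interferon response cells (median 23718) and 18228 to 39175 CPM in the others (median 29897). It was lower in 7 of 7 libraries although the ranges overlapped, and its log2 fold change was -0.30 ± 0.09 (edgeR adjusted p = 0.058). DESeq2 called Alb lower (-0.33, adjusted p = 0.0013) and also Gc, the vitamin D binding protein (-0.33, adjusted p = 0.033). With at least 3 of the chosen genes required, edgeR called Alb lower too (-0.42, adjusted p = 0.0017), and with TMM over all genes it did so at an adjusted p of 8.7e-06. By the number of UMIs of the chosen genes, the list summed to 100200 CPM at 0, 96005 CPM at 4 and 83458 CPM at 20 or more, pooled over libraries, but 109865 CPM at 3. Against cells matched on depth and lobule position the list median was -0.08. Of 19 complement genes none was called by edgeR, with 3 at an unadjusted p under 0.05, and of 17 apolipoprotein and lipoprotein genes Apoa2 rose (0.44 ± 0.09, 7 of 7), a call lost after that matching.

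Position in the lobule differed. A score per cell, 8 periportal minus 8 pericentral landmark genes as mean z-scores, was lower in interferon response cells in 7 of 7 libraries, by 0.53 ± 0.19 (SD, n = 7; exact sign-flip permutation p = 0.0156, the smallest that 7 libraries allow; 0.0313 adjusted over 2 tests). With each library's cells split into 3 equal parts by this score, 64 of the 114 cells (56.1%) fell in the pericentral part, 33 (28.9%) in the middle and 17 (14.9%) in the periportal part. The score difference ranged from -0.246 in ZT6B to -0.744 in ZT12C, and it was lower also in the 3 libraries with fewer than 5 such cells. With cells of at least 3 UMIs included, the difference was -0.30 (exact sign-flip permutation p = 0.0547). The mitochondrial share of a cell's UMIs was lower in 6 of 7 libraries, by 1.48 ± 1.72 percentage points (exact sign-flip permutation p = 0.0469), and this passed in 1 of the 7 analyses that left out a library.

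Most of the genes lowered were those of the periportal side. Of the 9 called lower, 5 were among the 8 periportal landmarks themselves: Hal, which breaks down histidine, Ass1 of the urea cycle, Pigr, the receptor that carries IgA into bile, Cyp2f2 and the lipid droplet enzyme Hsd17b13. Hal stood at 0 to 202 CPM in interferon response cells (median 65.1) and 172 to 359 CPM in the others (median 226). Only the ZT0B value of interferon response cells lay within the range of the others, and Hal was lower in 7 of 7 libraries (log2 fold change -1.39 ± 0.25, edgeR adjusted p = 9.6e-06). Ass1 measured 527 ± 117 against 791 ± 153 CPM (-0.59 ± 0.14, edgeR adjusted p = 0.0020, 7 of 7 lower, lost without ZT0C). Pigr had -0.53 ± 0.13 (7 of 7 lower, lost without ZT0A), Hsd17b13 -0.80 ± 0.22 (7 of 7 lower) and Cyp2f2 -0.51 ± 0.14 (5 of 7 lower). The other called lower genes were Mup20, Etnppl, Amy1 and A330069E16Rik. Mup20, a urinary pheromone protein, had -0.55 ± 0.10 (7 of 7 lower) and the phospholipid enzyme Etnppl -1.07 ± 0.30 (6 of 7 lower). Other major urinary protein genes were called higher, Mup11 (0.64 ± 0.13, edgeR adjusted p = 0.00014, 6 of 7) and Mup17 (0.62 ± 0.14, edgeR adjusted p = 0.0010, 5 of 7). Neither was called by DESeq2 or against cells matched on depth and lobule position. Mup11 also lost its call without ZT6A, and Mup17 without ZT0C or ZT12C. The amylase Amy1 had -1.77 ± 0.49 (7 of 7 lower), and A330069E16Rik rested on 4 UMIs (6 of 7 lower). Hsd17b13 lost its call without ZT0B, ZT0C, ZT6A or ZT12B, Cyp2f2 without any ZT0 library or ZT6A, and Etnppl without any ZT0 library, ZT6A or ZT12C. Amy1 lost it without ZT0A, ZT0C or ZT6A, and A330069E16Rik without any tested library other than ZT12B.

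The comparison was repeated against other cells of the same depth and the same part of the lobule, 10 for each interferon response cell. That part is set by the 16 landmark genes, so matching brings their own differences toward 0 by construction. The periportal landmarks then had a median log2 fold change of 0.08 in place of -0.56, and the pericentral landmarks 0.00 in place of 0.41. Of the 9 lower genes 1 was called, Amy1 (-1.91), which encodes amylase and rested on 9 UMIs in these cells. Hal had -0.59 and Mup20 -0.12, neither called. Of the 71 higher genes 46 were called after matching, among them 27 of the 36 in interferon lists. Isg15 and Iigp1 had 4.06 and 1.84 after matching, against 3.91 and 1.82 before.

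**Figure D5:**
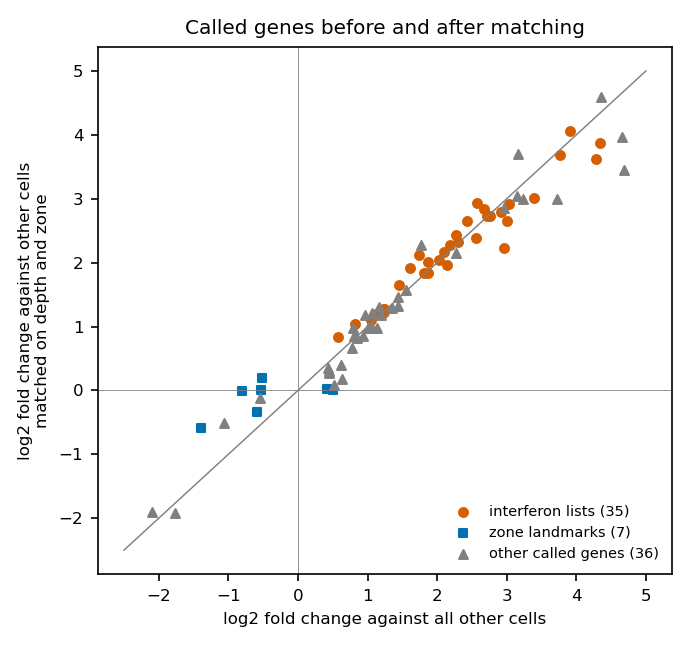
Log2 fold change of the called genes against all other cells (x) and against other cells matched on UMI count and lobule position (y), on linear axes with the line of equality. The 35 interferon list genes shown lie near that line, and the 7 zone landmarks lie near 0 on the y axis, as matching on them implies, apart from Hal at -0.59 and Ass1 at -0.33.

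The metabolic gene lists held few called genes, and most of those are zoned. Of 37 tested cytochromes P450 of families 1 to 4, 2 rose and 1 fell, Cyp2f2. The 2 were Cyp2e1 (0.51 ± 0.10, 6 of 7) and Cyp2c29 (0.52 ± 0.11, 7 of 7, lost without ZT6B), both enriched around the central vein. Both higher genes were at 0.01 and 0.08 after matching and lost their calls. Of 24 fatty acid oxidation and ketogenesis genes Fabp1, the abundant fatty acid binding protein, rose (0.45 ± 0.09, 6 of 7), but not by DESeq2 (adjusted p = 0.41) or after matching (0.27, edgeR adjusted p = 0.30). Of 15 urea cycle and ammonia genes Ass1 fell. Cps1, the first enzyme of that cycle, measured 2298 ± 504 against 2618 ± 735 CPM and was not called. No gene was called by edgeR among 20 of glucose and glycogen metabolism, 20 of bile acid synthesis and transport, 33 of cholesterol and fatty acid synthesis and 17 of endoplasmic reticulum folding, where 3, 0, 6 and 0 had an unadjusted p under 0.05. Cyp7a1, the rate-limiting enzyme of bile acid synthesis, measured 98.3 ± 66.7 against 94.8 ± 85.3 CPM. Medians of these lists lay between -0.22 and 0.13. Metabolic genes outside the lists were also called higher: Upp2 (0.81 ± 0.18, 5 of 7), Papss2 (0.78 ± 0.22, 6 of 7) and Dbi (0.44 ± 0.10, 6 of 7). After matching Upp2 kept its call, and Papss2 and Dbi lost theirs. DESeq2 called none of them. Upp2 lost its call without ZT0C or ZT6A, Papss2 without any ZT0 or ZT6 library, and Dbi without ZT12B.

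Housekeeping lists held no called gene. Of 81 ribosomal protein genes and 81 nuclear-encoded respiratory chain genes none was called by edgeR, with medians of 0.04 and -0.03 and with 2 and 5 at an unadjusted p under 0.05. The 13 mitochondrially encoded genes, the 13 tested clock genes and the 20 immediate early and stress genes likewise had 0 calls and 0 with an unadjusted p under 0.05.

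Whether the difference between interferon response cells and other cells varied with time was tested at ZT0, ZT6 and ZT12. It did for 4 of 6253 genes (0.064%). Hamp, which encodes the iron-regulating hormone hepcidin, showed the clearest pattern (edgeR adjusted p = 2.2e-15). Its log2 ratio of interferon response to other cells was -0.65, -1.34 and -1.14 in the ZT0 libraries A, B and C, 0.10 and 0.20 in ZT6A and ZT6B, and 1.55 and 2.55 in ZT12B and ZT12C. The 3 times did not overlap. At ZT12 the levels were 2148 against 732 CPM in ZT12B and 1545 against 263 CPM in ZT12C, and at ZT0 they were 1150.2 against 1799 CPM in ZT0A. Malat1, Dbi and Fabp1 followed (edgeR adjusted p = 0.0317 each). With a ZT12 library left out, ZT12 falls to 1 library and leaves the test, and 0 genes were called. Other omissions gave 1 or 2.

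The 11 interferon response cells of ZT12A, ZT18A and ZT18B were not tested. Iigp1 stood at 2128, 4049.6 and 2201 CPM in them, against 241, 312 and 343 CPM in the other cells of these libraries. It was thus higher in all 10 libraries, as was the summed level of the GTPase list, whereas Isg15 had no UMI in the 4 cells of ZT18A.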

How the data were processed

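Single hepatocytes of 10 libraries were analysed from tables of UMI counts per gene and cell, deposited by the authors without normalization. The submitters' processing notes name Cell Ranger, mm10 and hg19, without roles. The annotation, the cell filter and the treatment of reads shared by similar genes are not given in the sources used here. Of 14812 gene entries, 14321 matched GENCODE M21 names. Libraries held 1454623 to 7144803 UMIs. Cell names carry no barcodes, so barcodes shared between libraries could not be counted, and 0 cells had identical columns. No doublet caller was run, and an alternative dropped the deepest 5% of cells.

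Counts were summed per library over the chosen and the other cells, in the 7 libraries with at least 5 chosen cells, without the 10 chosen genes. The test took genes averaging 10 CPM or more, with 10 UMIs or more, and used edgeR 4.0.16 (R 4.3.3), quasi-likelihood, with the library as a block. TMM factors came from the 1235 genes averaging 100 CPM or more, because on simulated data TMM over all genes was biased. Adjusted p-values are Benjamini-Hochberg over all genes tested. DESeq2 1.42.0 was an alternative. Permutation tests and intervals used Python 3.11.15 and scipy 1.17.1, and intervals cover counting error only. Matched comparisons used 10 other cells per chosen cell of the same library. Genes were named by size of change among called genes that moved the same way in at least 80% of libraries (15 higher, 10 lower), the 4 lowest p-values and the 2 most abundant of each list, and a set of interferon and liver genes given by name. Any other gene was singled out after its values were seen. The cell rule, lists and tests were chosen with earlier results of these data known. The values of 1 gene are not reported here.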

Additional observations from a re-analysis of the deposited data

Results flagged for a closer look

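Among 42 genes and lists examined for a library far from the other 6, 2 were flagged. Chance alone gives about 1 in 20, so 2 among 42 is about the number that chance gives. Id3, a helix-loop-helix inhibitor of transcription, had a log2 ratio of interferon response to other cells of 5.79 in ZT12C. In the other libraries it was 0.48 to 1.39. The ZT12C value was 335.9 CPM in 7 cells, where 1 UMI was worth 67.2 CPM. Irf2 had a log2 ratio of -0.75 in ZT0A, against 0.83 to 1.99 elsewhere. Its 25.6 CPM in the interferon response cells of ZT0A was the worth of 1 UMI there. The difference between interferon response cells and other cells varied among ZT0, ZT6 and ZT12 for Hamp (edgeR adjusted p = 2.2e-15), and for Malat1 (edgeR adjusted p = 0.0317), Dbi (edgeR adjusted p = 0.0317) and Fabp1 (edgeR adjusted p = 0.0317).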

How the results depend on the processing

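Of the 71 higher genes, 17 were called in all 26 alternatives and 32 whichever library was left out, counting a gene that a stricter filter left untested as not called (19 at 30 CPM). Of the 9 lower genes, 0 and 2 were. Higher calls numbered 43 with DESeq2 and 45 with TMM over all genes, and 45 to 68 with a library left out, the lowest without ZT0C. Lower calls numbered 5 with no filter, 5 with matching on depth, 1 on depth and position, 2 with cells of at least 3 UMIs, 4 without cells holding another type's markers, 18 in libraries with at least 10 chosen cells, 6 with DESeq2, 5 without the highest cell of each library and 3 to 10 with a library left out. TMM over all genes gave 102 lower calls, a median of -0.27 over all genes and 30.6% of calls higher, against 88.75%, and libraries with at least 10 chosen cells gave 77.5%. Matching on depth and position turned the log2 fold change of Pigr to 0.0085 and of Cyp2f2 to 0.19. The position score was -0.30 with cells of at least 3 UMIs. The mitochondrial difference was -1.43 at 6 UMIs or more (exact sign-flip permutation p = 0.156) and -1.81 to -0.93 with a library left out. Genes varying with time numbered 1 with library size alone and 0 to 2 with a library left out. The share by time had an exact permutation p of 0.0208 with permutation within letters as a replicate block, 0.0056 to 0.0317 with a library left out and 0.154 without ZT18. Deviations of 13 same-letter pairs of libraries correlated at -0.15 to 0.71. The 5 over 0.1 were the 3 pairs of ZT0 with ZT12 and the 2 of ZT12 with ZT18, and across all times the letters were not treated as pairing. The alternatives on different chosen genes, the highest cell, all 10 libraries, TMM over all genes, the filter on other cells and ZT18 were chosen after seeing the data. The cause of each change was not tested.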
